A study of Mus musculus with 4 samples.

Results

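The steroid hormone receptors *Esr1*, *Esr2*, *Pgr*, *Nr3c1* and *Nr3c2* and the estrogen-synthesizing enzyme aromatase (*Cyp19a1*) were followed in sorted embryonic cells that the study takes as interneurons of the pre-optic area (POA), from embryos labelled wild type or knockout for *Dnmt1*. These 6 genes were chosen by symbol, and all 6 were found among the 55573 Ensembl genes counted. At embryonic day (E) 16 tissue was dissected that the labels give as basal telencephalon and the study as POA. The tissue was dissociated, tdTomato-positive cells were sorted by flow cytometry (FACS), and their RNA was sequenced. In both genotypes, on a C57BL/6J background, *Hmx3-Cre* switched on the tdTomato reporter, which marks cells with present or past *Hmx3* expression. The libraries also held RNA of marker genes of other cell types, given at the end. *Hmx3-Cre/tdTomato/Dnmt1* wild-type (WT) embryos carried an intact *Dnmt1* gene. Knockout (KO) embryos were *Hmx3-Cre/tdTomato/Dnmt1 loxP2*, in which Cre removes exons 4 and 5 of *Dnmt1*, the gene of the DNA methyltransferase that copies CpG methylation to newly made DNA strands. Cells came from 12 WT and 6 KO embryos, were pooled within a genotype, and gave 2 libraries each. The labels name these biological replicates and the study's methods describe technical duplicates of pools, so p-values measure only the spread between these libraries. The sex of the embryos is not given in the labels.

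The 5 receptors are ligand-activated transcription factors that are held in the cytoplasm or nucleus by heat shock protein chaperones and bind DNA after their hormone has entered the cell. *Nr3c1* encodes the glucocorticoid receptor and *Nr3c2* the mineralocorticoid receptor, and both bind corticosterone, the main stress steroid of mice. *Esr1* and *Esr2* encode the estrogen receptors alpha and beta, and *Pgr* encodes the progesterone receptor, a classical estrogen-induced gene. Aromatase converts testosterone into estradiol, and the POA is a brain region in which aromatase and estrogen receptors are known for their part in sexual differentiation.

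The members lie on 5 chromosomes of GRCm38. *Nr3c2* spans 76899442 to 77245012 on the plus strand of chromosome 8. *Esr1* extends from 4611593 to 5005614 on the plus strand of chromosome 10, and *Esr2* from 76120419 to 76177259 on the minus strand of chromosome 12. *Pgr* (8899833 to 8968611, plus strand) and *Cyp19a1* (54165937 to 54268110, minus strand) share chromosome 9. All 6 are protein-coding, and only *Nr3c2* shares exonic bases with another annotated gene, the antisense non-coding RNA *Gm10649*, over 3.82% of its exonic length. Since *Gm10649* had 0 and 7 WT counts and 5 and 0 KO counts, its own counts were low, but as the strand setting of the counting is not known, reads in the shared bases cannot be told apart.

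As *Dnmt1* acts on CpG sites, the sequence in front of a RefSeq start is shown for *Nr3c2*, which differed between genotypes, and for *Pgr*, which did not pass the test. Both come from the RefSeq promoter table (GRCm38.p6), are written 5′ to 3′ on the gene's plus strand without annotated exon bases of the gene, and carry their CpG sites in capitals. The *Nr3c2* stretch, chr8:76902080-76902287, lies inside the GENCODE span of the gene, in front of a start downstream of its first annotated base. It holds 14 CpG sites in 208 bases, and the *Pgr* stretch, chr9:8899583-8899832, holds 4 in 250 bases. Other members that did not pass covered a wide range, with 12 in 250 bases for *Esr2*, 7 in 247 for *Esr1* and 2, 3 and 6 in 250 for *Cyp19a1*. A link between CpG number and the change in KO was not tested.
Nr3c2: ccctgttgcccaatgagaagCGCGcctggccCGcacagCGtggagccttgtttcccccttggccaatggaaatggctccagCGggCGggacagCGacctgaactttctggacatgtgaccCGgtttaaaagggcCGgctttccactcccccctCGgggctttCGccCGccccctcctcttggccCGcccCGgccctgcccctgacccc
Pgr: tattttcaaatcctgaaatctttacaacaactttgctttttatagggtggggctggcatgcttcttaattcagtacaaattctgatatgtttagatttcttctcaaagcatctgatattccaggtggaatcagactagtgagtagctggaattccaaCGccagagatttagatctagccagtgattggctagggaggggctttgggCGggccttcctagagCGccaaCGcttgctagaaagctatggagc

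The search took 8 windows of 300 bases for 5 of the 6 members. It left out chromosome 18, on which *Nr3c1* lies, so *Nr3c1* had no window. The *Nr3c2* window had 17 CpG sites, more than the 14 of *Esr2*, the 6 and 12 of the *Esr1* windows, the 6 of *Pgr* and the 2, 6 and 6 of the 3 *Cyp19a1* windows. The median over all 32851 windows was 7. The member windows thus covered both sides of this median, from the 18.7th to the 69.4th percentile. DNA methylation was not measured in these libraries. An estrogen response element (the half-site GGTCA and its inverted copy, 3 bases apart) occurred in none of the 8 windows, nor did a glucocorticoid response element (the half-site GNACA and its inverted copy, also 3 bases apart). As both motifs are palindromes, a single search covers both strands. They occurred in 0.07% and 0.475% of all windows.

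The libraries held 8075102 to 9995968 counts. Counts of same-genotype libraries differed beyond sampling noise (a chi-square of 39.8 per degree of freedom for WT and 3.54 for KO), and the WT libraries stood further apart, with 8.66% mitochondrial rRNA in WT replicate 1 against 1.51% to 2.32% in the others. *Dnmt1* itself had 385 and 446 CPM (counts scaled for library size and composition by TMM) in WT and 283 and 281 CPM in KO. By the edgeR quasi-likelihood test the log2 fold change was -0.56 (standard error 0.14), which did not pass after Benjamini-Hochberg adjustment (adjusted p = 0.0511). It was called under 7 of 12 alternatives, among them DESeq2 (adjusted p = 0.00843) and limma-voom (0.0358). Counts over the whole gene still hold reads outside the removed exons. Among 16832 genes tested, 7.9% differed at an adjusted p under 0.05, with 7.33% higher and 0.57% lower in KO.

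*Nr3c1* and *Nr3c2*, the receptors of corticosteroids, rose in KO, whereas the estrogen receptors, the progesterone receptor and aromatase did not pass the test. All 6 members passed the filter on low counts, *Esr2* only through its KO libraries. Of the 6, 2 were called, both higher, against the background of 7.9% over all genes. In a bulk sample, more cells that carry a transcript and more transcript per cell cannot be told apart. The pairs of libraries are shown gene by gene in the plot of CPM by genotype.

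**Figure D1:**
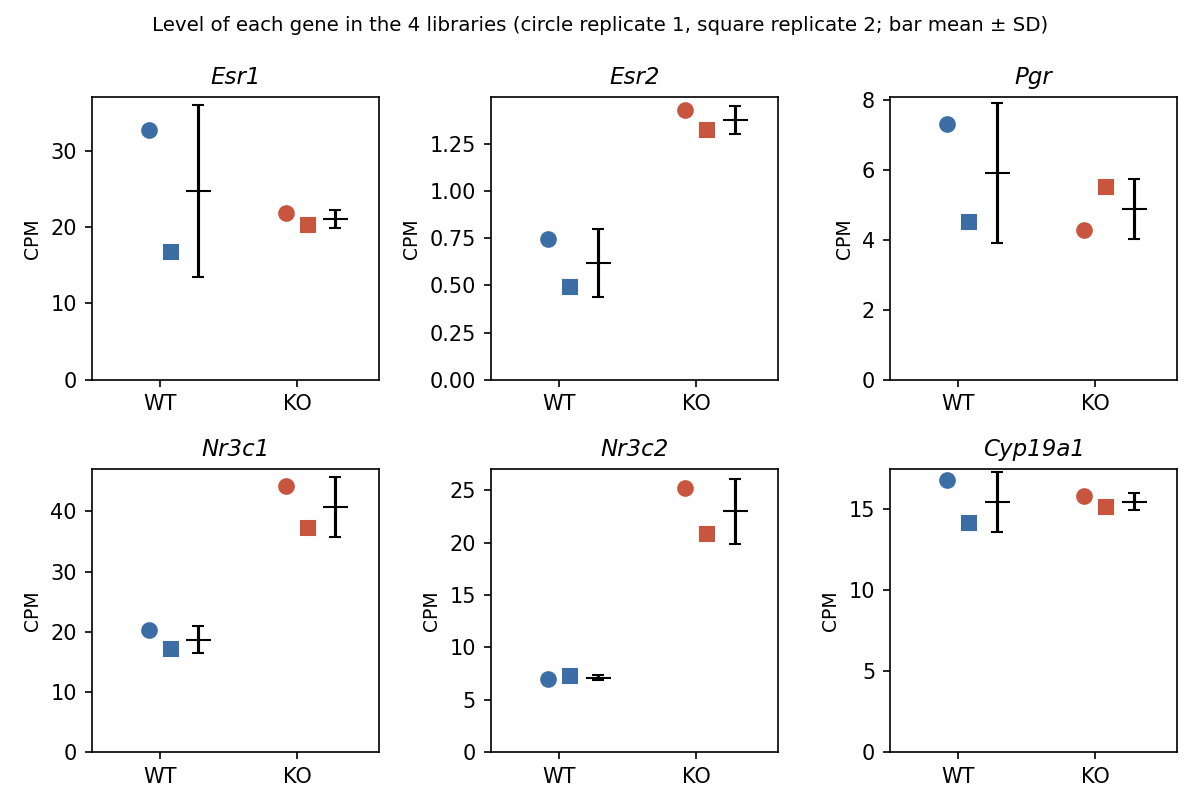
Level of each of the 6 genes in CPM (y axis, from 0) in WT and KO libraries (x axis), with circles for replicate 1, squares for replicate 2 and black bars for the mean ± SD (n = 2). *Nr3c1* and *Nr3c2* lie higher in both KO libraries than in both WT libraries, *Esr2* does so at 1.43 CPM or less, and the groups overlap for *Esr1*, *Pgr* and *Cyp19a1*.

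*Nr3c1* lies on the minus strand of chromosome 18 from 39410545 to 39519421 (GRCm38) and encodes the receptor that responds to stress levels of glucocorticoids. It had 163 and 174 counts in the WT libraries and 372 and 338 in the KO libraries. This corresponded to 20.2 and 17.0 CPM in WT and 44.2 and 37.2 CPM in KO. The groups did not overlap, and the higher and the lower library of a genotype differed by only 1.19-fold in both genotypes. The means were 18.6 ± 2.25 CPM in WT and 40.7 ± 4.95 CPM in KO (SD, n = 2 each). The fitted change was 2.19-fold, a log2 fold change of 1.13 (standard error 0.19, 95% interval 0.69 to 1.57, edgeR adjusted p = 0.00863).

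*Nr3c2*, the receptor with the higher affinity for corticosterone, had 56 and 74 WT counts and 212 and 189 KO counts. Its level was 6.95 and 7.25 CPM in WT and 25.2 and 20.8 CPM in KO. The WT libraries nearly coincided, and each KO library was well above both. The means were 7.10 ± 0.212 CPM in WT and 23.0 ± 3.10 CPM in KO (SD, n = 2 each). With a 3.23-fold increase, the log2 fold change was 1.69 (standard error 0.24, 95% interval 1.14 to 2.25, edgeR adjusted p = 0.00351). The intervals of the 2 receptors overlapped, and the difference between their changes was not tested.

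*Esr1*, the estrogen receptor that marks many hormone-sensitive neurons of the POA, had 263 and 171 counts in WT and 184 in each KO library. On the CPM scale the WT libraries stood at 32.6 and 16.8, with both KO libraries, at 21.9 and 20.3, between them. The WT libraries thus differed by 1.95-fold from each other, more than the genotypes did. The log2 fold change was -0.22 (standard error 0.30, 95% interval -0.92 to 0.48, edgeR adjusted p = 0.711). Its sign rested on the WT library used. It was 0.32 (adjusted p = 0.328) without WT replicate 1 and -0.64 (adjusted p = 0.0123) without WT replicate 2.

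*Esr2* was close to the limit of detection, with 6 and 5 counts in WT and 12 in each KO library. A count of 3 equals 0.294 to 0.372 CPM in these libraries, and *Esr2* had 0.745 and 0.490 CPM in WT and 1.43 and 1.32 CPM in KO. Both KO libraries were above both WT libraries, as for 28.3% of all genes tested. The exact 95% Poisson interval, for counting error only, reached from 2.20 to 13.1 counts in WT replicate 1 and from 1.62 to 11.7 in WT replicate 2, and its lower bound was 6.20 counts in each KO library. The log2 fold change of 1.15 (standard error 0.64, 95% interval -0.33 to 2.64) did not pass (edgeR adjusted p = 0.330), so a difference was not detectable at this depth.

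*Pgr*, the progesterone receptor, had 59 and 46 WT counts and 36 and 50 KO counts. The levels were 7.32 and 4.51 CPM in WT and 4.28 and 5.51 CPM in KO, and the groups overlapped. Its log2 fold change was -0.26 (standard error 0.38, 95% interval -1.14 to 0.61, edgeR adjusted p = 0.729), and it was 0.11 without WT replicate 1.

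*Cyp19a1* was the member with the most even counts, 135 and 144 in WT and 133 and 137 in KO. Its CPM values were 16.8 and 14.1 in WT and 15.8 and 15.1 in KO. Both KO values fell inside the range of the WT values. The log2 fold change was 0.0039 with a standard error of 0.23, and the 95% interval from -0.52 to 0.52 left room for changes of up to 1.44-fold in either direction (edgeR adjusted p = 0.996). The plot of fold changes sets this interval beside those of the other members.

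**Figure D2:**
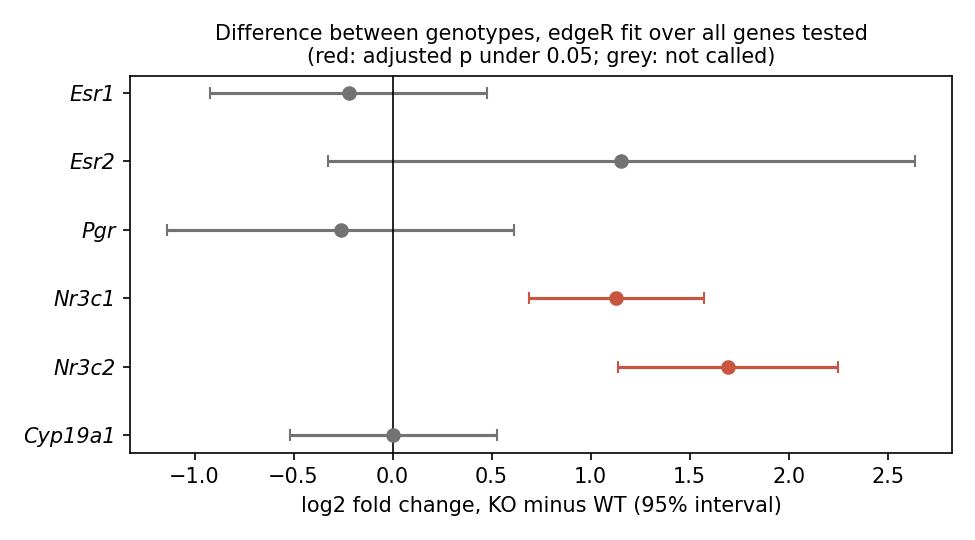
Log2 fold change of each gene, KO minus WT (x axis), with its 95% interval from the edgeR fit over 16832 genes (n = 2 libraries per genotype). The intervals of *Nr3c1* (0.69 to 1.57) and *Nr3c2* (1.14 to 2.25), in red, lie above 0, and the 4 grey intervals include 0, with that of *Esr2* the widest.

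To compare the members with each other, counts were divided by the exonic length of each gene and scaled to the same sum in every library (TPM). On this length-scaled level the order in both WT libraries was *Cyp19a1*, *Nr3c1*, *Esr1*, *Nr3c2*, *Pgr* and *Esr2*. *Cyp19a1* stood at 9.96 and 10.3 TPM and *Nr3c1* at 7.08 and 7.30. *Esr1* followed with 6.42 and 4.04, and its range came near to those of both neighbours without overlapping them. *Nr3c2* had 2.89 and 3.69, *Pgr* had 2.30 and 1.74, and *Esr2* was last with 0.594 and 0.479. No neighbouring ranges overlapped in WT, although the place of *Esr1* depended on the length used. With the longest transcript in place of all exons, *Esr1* averaged 9.51 in WT and was above *Nr3c1* at 7.22.

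In KO the glucocorticoid receptor was first, with a length-scaled level of 18.8 and 16.1 TPM. *Nr3c2* (12.7 and 10.7) and *Cyp19a1* (11.4 and 11.1) came next and overlapped, so that their order was not resolved. *Esr1* (5.23 and 4.94), *Pgr* (1.64 and 2.15) and *Esr2* (1.38 and 1.31) took the last 3 places in both KO libraries, where *Esr1* was 4th after being 3rd in WT. With the longest transcript, *Nr3c1* (17.6) and *Cyp19a1* (17.5) were at the same average level in KO. Among all genes tested, *Nr3c1* was at the 38.4th and 37.2nd percentile of this level in WT and at the 55.3rd and 50.9th in KO, and *Nr3c2* moved from the 21.2nd and 24.9th to the 44.8th and 40.0th. *Esr2* was between the 3.99th and 4.59th percentile in all 4 libraries.

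**Figure D3:**
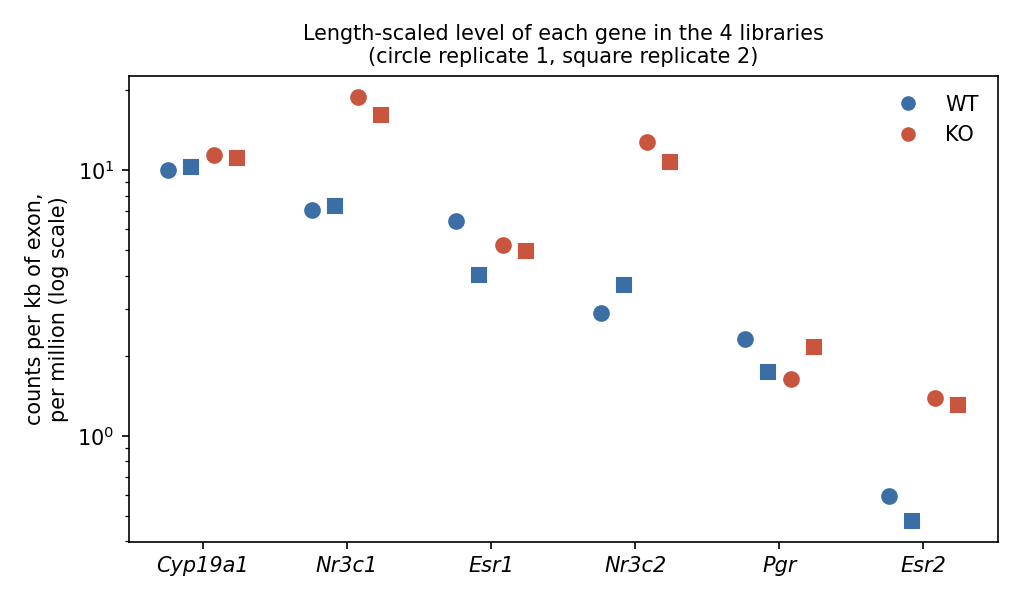
Length-scaled level (TPM, counts per kb of exon scaled to a common sum, log axis) of the 6 genes, ordered by their WT mean, in each of the 4 libraries (circles replicate 1, squares replicate 2). *Cyp19a1* leads in WT at 9.96 and 10.3, and *Nr3c1* leads in KO at 18.8 and 16.1.

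Ratios of counts between 2 members in the same library need no scaling and showed the unequal change directly. *Nr3c1* had 1.21 counts for every count of *Cyp19a1* in both WT libraries, and 2.80 and 2.47 in KO. For *Nr3c2* against *Cyp19a1*, the ratio was 0.415 and 0.514 in WT and 1.59 and 1.38 in KO. Within the corticosteroid receptors, the ratio of *Nr3c1* to *Nr3c2* counts was 2.91 and 2.35 in WT and 1.75 and 1.79 in KO. It was thus lower in both KO libraries, without a test of the difference. The ratio of *Esr1* to *Nr3c1* was 1.61 and 0.983 in WT and 0.495 and 0.544 in KO. By contrast, *Esr1* to *Cyp19a1* (1.95 and 1.19 in WT, 1.38 and 1.34 in KO) and *Pgr* to *Cyp19a1* (0.437 and 0.319 in WT, 0.271 and 0.365 in KO) overlapped between genotypes. These ratios describe the same 4 libraries and were not tested.

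The genes around the receptors were taken from 7 lists with 110 genes besides the members, of which 87 passed the filter. As the lists were chosen with earlier results of these data known, their shares are descriptions and not tests of the pathway. Of these 87 genes, 20 were higher and 3 lower in KO, or 26.4% called, against 7.9% of all genes tested. Among the higher genes, *Thrb*, *Hsd11b1*, *Cyp7b1*, *Mt1*, *Mt2* and *Pdk4* passed the filter only through their KO libraries. With at least 10 counts in every library, 16 list genes were called, against 883 calls among all 14294 genes then tested. How many list genes that stricter filter kept was not counted, so the 16 are not given as a share. The 87 genes had a median change of 0.0031 on the log2 scale, against -0.026 over all genes. Of the 20 higher genes, 11 were glucocorticoid-induced genes, which the plot of the 7 lists shows. With either WT library left out more list genes were called, and so were more of all genes.

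**Figure D4:**
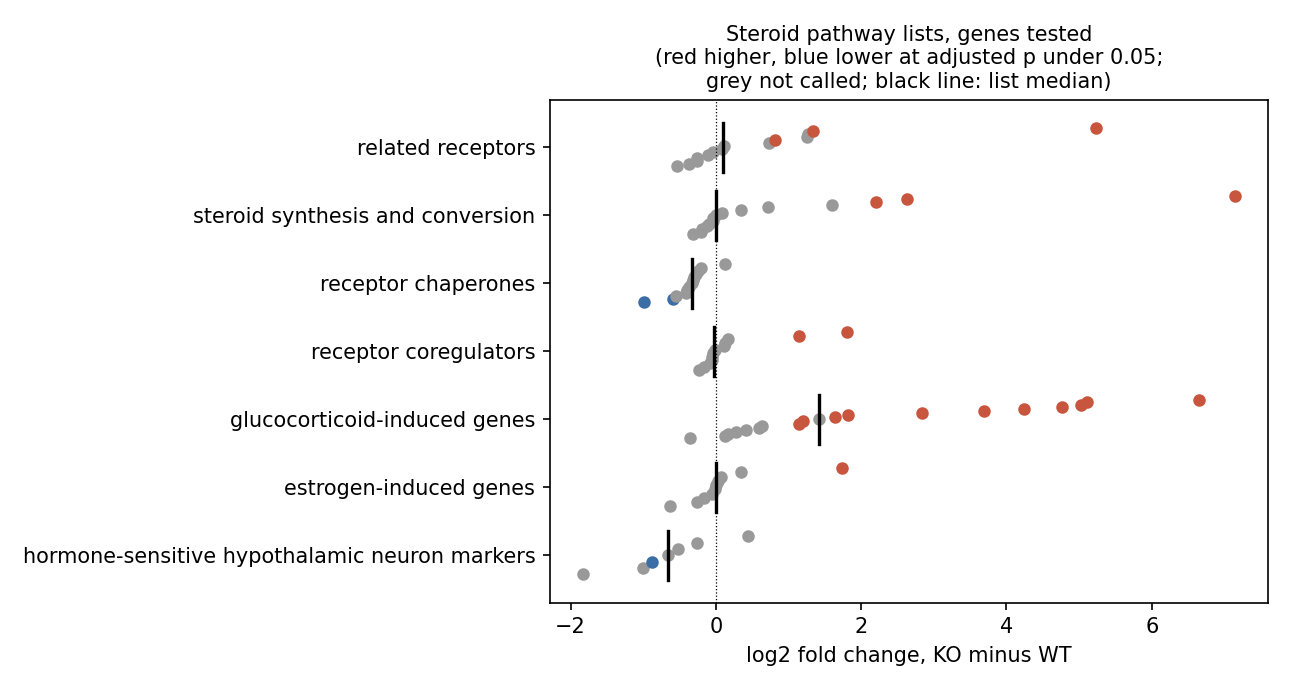
Log2 fold change (x axis, KO minus WT) of each tested gene in the 7 steroid pathway lists (y axis), with red for higher and blue for lower at an edgeR adjusted p under 0.05, grey for not called and a black line for the list's median. The glucocorticoid-induced genes have the highest median, 1.42, the gene furthest to the right is *Hsd11b1* at 7.14 in steroid synthesis and conversion, and the other medians lie between -0.66 and 0.10.

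Of 20 genes that glucocorticoids are known to induce, 19 were tested, and 11 were higher and 0 lower in KO (7.33% of all genes were higher and 0.57% lower). With DESeq2, with limma-voom and at an unadjusted edgeR p under 0.05, 0 of the 19 were lower as well. The median log2 fold change was 1.42, but 4 of the 19 passed the filter only through their KO libraries. *Hif3a*, a hypoxia-inducible factor subunit, had 15 and 18 WT counts and 513 and 584 KO counts, which gave a log2 change of 5.10 (edgeR adjusted p = 6.33e-06). *Pdk4*, a kinase that limits pyruvate oxidation, went from 5 and 0 counts to 69 and 99 (log2 fold change 5.03, adjusted p = 0.00493). WT replicate 1 carried all WT counts of *Pdk4*, so that the size of its change rests on that library, and the fitted value without it, 9.46, is no bound. *Mt2*, a metallothionein, had 1 and 0 WT counts and 57 and 64 KO counts, a ratio of 126 (exact 95% interval 22.2 to 5031, counting error only). The antisense gene *Gm45774* covers 73.5% of the exonic bases of *Mt2*, and as the strand setting of the counting is not known, their reads cannot be told apart.

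*Tsc22d3*, which encodes the glucocorticoid-induced leucine zipper protein, had the profile over the 4 libraries most like that of *Nr3c1* among the 87 pathway genes. The Euclidean distance of their centred log2 CPM values was 0.298. Over 4 libraries such a distance is a description, and a shared control of the 2 genes was not tested. *Tsc22d3* had 351 and 504 WT counts and 936 and 860 KO counts (log2 fold change 1.15, edgeR adjusted p = 0.00315). The other 8 tested genes of the list did not pass. Among them, *Fkbp5*, a co-chaperone of the glucocorticoid receptor and one of its best-known targets, had 361 and 481 WT counts and 417 and 460 KO counts, a log2 change of 0.12 (adjusted p = 0.662).

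A match to the glucocorticoid response element was present in the promoter windows of 2 of the 18 list genes with a window, *Mt1* and *Sgk1*, which were named after their values were seen. The element was thus in 2 of the 28 windows of these genes, against 0.475% of all windows. Among the other lists it was in 1 of 18 windows of steroid synthesis and conversion, that of *Hsd3b6*, a hydroxysteroid dehydrogenase also named after its match was seen. Such a match is a description of letters and not of a bound site. The 2 stretches below are from the plus strand. The element is in capitals and lies at chr8:94178995-94179007 and chr10:21993702-21993714, respectively, with flanking bases in lower case.
Mt1: cactatagGGACATGATGTTCcacacgtc
Sgk1: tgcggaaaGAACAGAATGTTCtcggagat
*Mt1*, a second metallothionein, rose from 8 and 25 counts to 453 and 396 (log2 fold change 4.76, edgeR adjusted p = 7.63e-05) and passed the filter only through KO. *Sgk1*, a kinase induced by both corticosteroid receptors, had 28.3 and 27.1 CPM in WT and 37.3 and 48.7 CPM in KO, and its log2 change of 0.63 did not pass (adjusted p = 0.0872).

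Of the 27 genes of steroid synthesis and conversion, 26 were in the files and 15 were tested. In KO 3 were higher and 0 lower, where 7.33% and 0.57% of all genes were higher and lower. No gene was lower at an unadjusted edgeR p under 0.05 or with DESeq2 or limma-voom either. This did not hold without WT replicate 2, where more of all genes were lower too. *Hsd11b1*, the enzyme that regenerates active corticosterone inside cells, had 1 and 0 WT counts and 92 and 78 KO counts. This was a ratio of 177 with an exact 95% interval from 31.4 to 7051 for counting error only (edgeR adjusted p = 0.000493). *Cyp7b1*, a steroid hydroxylase, rose from 11 and 8 counts to 63 and 52 (log2 fold change 2.63, adjusted p = 0.0112). *Hsd17b11*, a hydroxysteroid dehydrogenase, went from 15 and 22 counts to 85 and 78 (2.20, adjusted p = 0.00623). *Hsd11b1* and *Cyp7b1* passed the filter only through KO. The most abundant gene of this list that was not called was *Por*, the electron donor of aromatase and other cytochrome P450 enzymes, at 162 ± 30.4 CPM in WT and 157 ± 10.6 CPM in KO (SD, n = 2 each).

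Among 16 related receptors, 14 were tested, and 3 were higher and 0 lower with edgeR, against 7.33% and 0.57% of all genes (1 lower at an unadjusted p under 0.05 and with DESeq2, 0 with limma-voom). Fewer related receptors were higher with either KO library left out. With either WT library left out more were higher and more were lower, as over all genes. *Thrb*, thyroid hormone receptor beta, went from 4 and 2 WT counts to 115 and 111 KO counts (log2 fold change 5.23, edgeR adjusted p = 0.000308) and passed the filter only through KO. *Thra*, thyroid hormone receptor alpha and the most abundant gene of the list, had a log2 fold change of -0.26 (adjusted p = 0.362), and of -0.40 (0.00282) without WT replicate 1. *Gper1*, a membrane receptor for estrogens, had 26 and 49 WT counts and 83 and 97 KO counts (1.34, adjusted p = 0.0451). *Esrra*, an orphan relative of the estrogen receptors, changed by 0.81 (adjusted p = 0.0389). Both calls were lost without KO replicate 1 (adjusted p = 0.0958 and 0.242) and without KO replicate 2 (0.196 and 0.145).

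All 13 chaperones that serve the receptors were tested, and 2 were lower and 0 higher in KO, against 0.57% and 7.33% of all genes (0 higher also at an unadjusted edgeR p under 0.05 and with DESeq2 or limma-voom). *Hspa8*, a constitutive heat shock cognate protein, fell from 2623 and 4399 counts to 1512 and 1834 (log2 fold change -0.99, edgeR adjusted p = 0.00980). *Hsp90aa1*, one of the HSP90 genes, had a log2 fold change of -0.60 (adjusted p = 0.0414), which was no longer called with library size alone as scaling (0.109), with at least 10 counts in every library (0.0578), without KO replicate 1 (0.223) or without KO replicate 2 (0.616). More chaperones were lower with either WT library left out, where more of all genes were lower too, and fewer with either KO library left out. *Hsp90ab1*, with the highest level of the list, had -0.30 (adjusted p = 0.253), and was called at -0.36 (0.00154) and -0.26 (0.0390) without WT replicates 1 and 2.

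Of 12 coregulators, all tested, 2 were higher and 0 lower, against 7.33% and 0.57% of all genes. The 0 also held at an unadjusted edgeR p under 0.05 and with DESeq2 or limma-voom. It did not hold without WT replicate 1, where more of all genes were lower too. *Ppargc1a*, a coactivator of nuclear receptors and of mitochondrial genes, rose from 46 and 71 counts to 179 and 211 (log2 fold change 1.81, edgeR adjusted p = 0.00282). The corepressor gene *Ncor1* had the profile most like that of *Cyp19a1*, at a distance of 0.0753, and a log2 fold change of -0.034. *Nsd1*, the most abundant coregulator that was not called, had -0.060.

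Estrogen-induced genes gave 1 higher and 0 lower gene among 10 tested of 13, near the 7.33% of all genes that were higher, with 0 lower also at an unadjusted edgeR p under 0.05 and with DESeq2 or limma-voom. Without WT replicate 2 more list genes were higher, and so were more of all genes. The higher gene in the full set was *Greb1*, a coactivator of the estrogen receptor, with 36 and 53 WT counts and 161 and 121 KO counts (log2 fold change 1.74, edgeR adjusted p = 0.00983). *Greb1* also had the profile most like that of *Nr3c2* (distance 0.194). *Xbp1*, a regulator of the unfolded protein response, was the most abundant of those not called (log2 fold change -0.055). *Pgr*, itself a member of this list, was described above. The nearest profiles to *Esr1*, *Pgr* and *Esr2* were those of *Esrrg* (0.334), *Nrip1* (0.285) and *Hsd17b7* (0.359), and none of these 3 genes was called, although *Hsd17b7* went from a log2 fold change of 0.72 to 1.20 (adjusted p = 1.96e-05) without WT replicate 1.

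Markers of hormone-sensitive hypothalamic neurons gave 0 higher genes and 1 lower gene among 7 tested of 12 with edgeR, against 7.33% and 0.57% of all genes. DESeq2 and limma-voom again gave 0 higher and 1 lower. At an unadjusted edgeR p under 0.05, 1 was higher and 5 were lower, for which no share over all genes was taken. More of these markers were lower with either WT library left out, where more of all genes were lower too, and fewer with either KO library left out. *Irs4*, an insulin receptor substrate, fell from 891 and 874 counts to 440 and 497 (log2 fold change -0.87, edgeR adjusted p = 0.0167), a call lost without KO replicate 1 (0.113) or without KO replicate 2 (0.0684). *Th*, which encodes tyrosine hydroxylase of dopamine synthesis, had -0.26 (adjusted p = 0.368), and -0.41 (0.0374) without WT replicate 1. Both KO libraries were below both WT libraries for 6 of the 7 genes, as for 25.2% of all genes tested.

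The KO libraries also carried more RNA of glial and mural marker genes, which rose beside *Nr3c1* and *Nr3c2*. All 10 astrocyte markers were higher in KO, where 7.33% of all genes were higher and 0.57% lower, and their summed level went from 277 and 262 CPM in WT to 3865 and 3668 CPM in KO, 14.0-fold on average. *Slc1a2* and *Slc1a3*, the glial glutamate transporters and the most abundant of them, averaged 101 ± 16.8 and 73.4 ± 4.43 CPM in WT and 1948 ± 110 and 569 ± 33.3 CPM in KO (SD, n = 2 each). The intermediate filament gene *Gfap*, named after its values were seen, had 0 counts in both WT libraries. Of 7 oligodendrocyte markers, among them *Mbp*, 6 were higher (130 and 154 CPM in WT, 578 and 557 in KO). Of 8 mural cell markers, led by *Rgs5* and *Pdgfrb*, 6 were higher (58.6 and 64.1 CPM in WT, 363 and 361 in KO), and the smooth muscle actin gene *Acta2*, also named after its values were seen, had 0 counts in both WT libraries. Of these markers, 2 astrocyte, 2 oligodendrocyte and 3 mural ones passed the filter only through their KO libraries. The part of glial and mural RNA in the higher *Nr3c1*, *Nr3c2* and glucocorticoid-induced genes was not tested.

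Other marker lists moved less or in the opposite direction. Their edgeR counts with all libraries stand against the same 7.33% higher and 0.57% lower of all genes. These shares do not hold for an unadjusted p, nor with 1 library left out, which also moved the counts over all genes. The 12 markers of POA and GABAergic interneurons, led by *Dlx1* and *Gad2*, were present in all libraries with 1593 to 1736 CPM in WT and 1320 to 1449 CPM in KO, and 1 of them was lower (2 without WT replicate 1, 4 without WT replicate 2 and 0 with either KO library left out). For 6 general neuronal markers, led by *Map2* and *Tubb3*, the sum was 4566 to 4656 CPM in WT and 3282 to 3336 CPM in KO, with 2 lower (5 with either WT library left out and 1 with either KO library left out). Oligodendrocyte precursor markers (*Pdgfra* and *Cspg4* foremost) summed to 1283 to 1339 CPM in WT and 1631 to 1707 in KO, with 1 of 5 higher (3 and 4 without WT replicates 1 and 2, and 0 with either KO library left out). Radial glia markers (*Vim*, *Nes*) reached 694 to 712 and 783 to 793 CPM, with 1 of 6 higher (3 and 4 without WT replicates 1 and 2, the latter with 1 lower, and 0 without KO replicate 2). Microglial markers (*Csf1r*, *Cx3cr1*) were at 26.9 to 30.4 and 51.5 to 58.8 CPM with 1 of 6 tested higher (2 and 4 without WT replicates 1 and 2). Endothelial markers (*Flt1*, *Kdr*) were at 17.5 to 18.4 and 17.6 to 20.4 CPM with 0 of 6 tested called by edgeR, DESeq2 or limma-voom (1 higher and 2 lower at an unadjusted edgeR p under 0.05), and 1 higher without WT replicate 2. Choroid plexus markers (*Ttr*, *Otx2*) summed to 53.7 to 70.0 CPM in WT and 7.97 to 9.36 CPM in KO, with 1 of 4 tested lower (2 with either WT library left out). Erythroid markers (*Hbb-bs*, *Alas2*) were at 30.8 to 44.7 and 18.9 to 19.2 CPM, with 1 of 5 tested lower (4 without WT replicate 1 and 2 without any other single library).

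**Figure D5:**
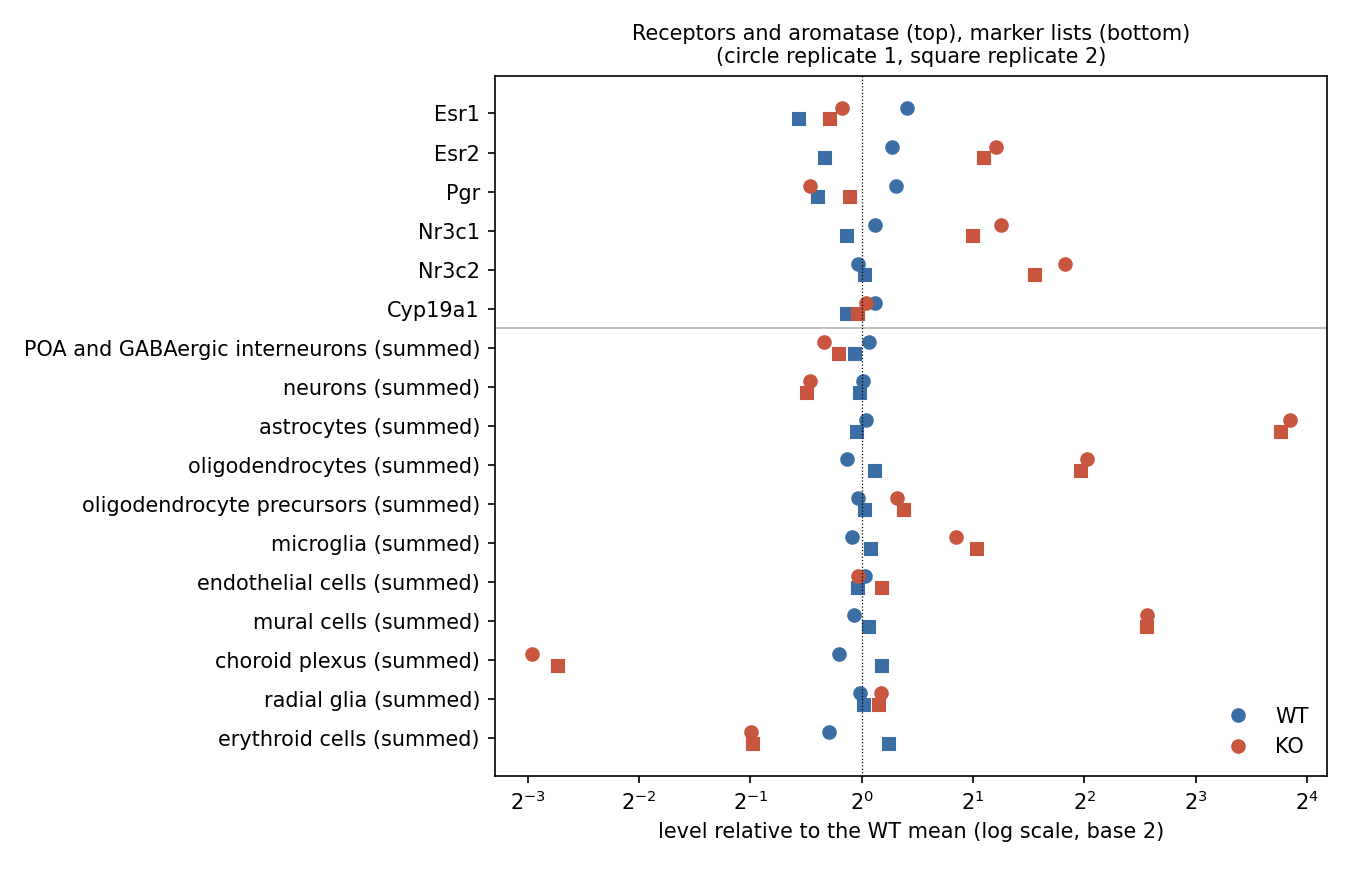
Level of each of the 6 genes (top) and summed level of each cell type marker list (bottom) in the 4 libraries, relative to the mean of the WT libraries (x axis, log scale of base 2; circles replicate 1, squares replicate 2). Astrocyte, mural and oligodendrocyte sums lie furthest to the right in KO (14.0, 5.90 and 4.00 times the WT mean), beyond *Nr3c2* and *Nr3c1*, while *Cyp19a1* stays at the WT level.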

How the data were processed

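RNA-seq was performed on 4 libraries of FACS-enriched cells, 2 per genotype. The deposited files hold raw gene counts made by the authors. The submitters' processing notes name CASAVA 1.8.2, STAR 2.5.2a, featureCounts 1.5.0-p1 and the mouse genome build mm10, which is GRCm38. The strand setting and annotation release are not given in the sources used here. Ensembl identifiers were matched to GENCODE M21 for 55480 of 55573 genes.

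Counts were tested in R 4.3.3 with the quasi-likelihood test of edgeR 4.0.16 (with limma 3.58.1) after filterByExpr and TMM scaling, with genotype as the only term, over 16832 genes. P-values were adjusted by Benjamini-Hochberg and called under 0.05. The filter needs about 10 counts in a library of median size in at least 2 libraries. Length-scaled levels divide counts by the union of exons. CpG sites and motifs were searched in RefSeq promoter windows, for members and lists without those on chromosome 18.

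The named genes were the 6 members, *Dnmt1*, up to 3 called genes in each direction and the most abundant one not called per pathway list, the nearest profiles, and 2 markers per cell type. Profiles were log2 of CPM plus 0.5, centred per gene. The members and lists were chosen with earlier results of these data known. Alternatives were RLE, library size or upper-quartile scaling, other filters, DESeq2 1.42.0, limma-voom, a replicate block and leaving out each library. The scripts' test was checked on simulated data. The gene *Sts* was not analysed here. Values of some genes that the rule names are not reported here.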

Additional observations from a re-analysis of the deposited data

How the results depend on the processing

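*Nr3c1* (log2 fold change 1.00 to 1.25) and *Nr3c2* (1.56 to 1.83) were called higher under all 12 alternatives, with adjusted p from 1.91e-08 to 0.0457 and from 8.88e-09 to 0.00537. *Pgr* was called under none of the 12, and *Esr2* (0.86 to 1.45) under none of the 11 in which it was tested, since it had fewer than 10 counts in WT. The 1329 genes called in all, 1233 higher and 96 lower, depended on the WT libraries. Leaving out 1 library at a time gave lower genes from 51 to 2180, with 1300 and 2180 without WT replicates 1 and 2. Higher genes ranged from 900 to 2578, all calls from 951 to 4209 (3878 without WT replicate 1), and pathway genes from 18 to 39 (36 without WT replicate 2). Without a filter there were 2363 calls (573 lower), with at least 10 counts in every library 883 (52 lower), and with DESeq2 247 lower. The share of calls that were higher, 92.8%, was 83.5% with DESeq2, which is within 10 points, 75.8% without a filter, 72.4% with the block, and 66.5% and 48.2% without WT replicates 1 and 2. Library size alone as scaling moved the median of all genes from -0.026 to 0.084 on the log2 scale.

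The labels do not say that equal replicate numbers share a pool, and same-number deviations from the genotype means correlated at 0.159 across genes with only 2 pairs. A replicate block gave 2244 calls (619 lower) and -0.56 for *Dnmt1* (adjusted p = 0.0149). *Dnmt1* was also called with RLE scaling (-0.57), no filter (-0.55), DESeq2 (-0.57), limma-voom (-0.56) and with either WT library left out (-0.67 and -0.46). Among the named genes, signs turned only in genes that were not called with edgeR. *Cyp19a1* was -0.0036 with RLE scaling, -0.0040 with DESeq2, -0.017 without KO replicate 1 and between -0.13 and 0.12 with 1 library left out. *Esr1* ranged from -0.64 (called) to 0.32 and *Pgr* from -0.59 to 0.11. With library size alone, *Por* was 0.057, *Nsd1* 0.054, *Xbp1* 0.048, *Esrrg* 0.083 and *Ncor1* 0.083. With upper-quartile scaling, *Esrrg* was 0.00067 and *Ncor1* 0.0077, and with at least 10 counts *Ncor1* was 0.0027. With 1 library left out, *Por* lay between -0.23 and 0.15, *Xbp1* between -0.19 and 0.080, *Esrrg* between -0.32 and 0.26, *Ncor1* up to 0.052 and *Nrip1* between -0.39 and 0.072. With the longest transcript as length, the WT and KO levels were 9.51 and 9.22 TPM for *Esr1*, 0.453 and 1.13 for *Esr2*, and 15.7 and 17.5 for *Cyp19a1*. The cause of these changes was not tested. Where a genotype was left with 1 library, that library was assumed to vary like the other genotype. The depth limits *Esr2*, with at most 12 counts per library.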
